A study of Mus musculus with 5 samples.

Results

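The genes described here are the 10 that carry out or drive de novo fatty acid synthesis in the list Fasn, Acaca, Acacb, Acly, Scd1, Scd2, Elovl1, Elovl5, Elovl6 and Srebf1. Every probe set whose only gene symbol in the array's annotation was one of these names was taken, which gave 26 probe sets of the 34958 with 1 symbol, and 10 genes of 18194. They were measured on postnatal day 2 in GFP-positive cells that flow cytometry had separated from dissociated lungs of SPC-GFP mouse pups, the offspring of SPC-GFP mice and the outbred ICR strain. SPC commonly stands for surfactant protein C, whose gene Sftpc marks alveolar type 2 cells, so the reporter, and not a surface protein, defined the sort. There were 5 biological replicates in 1 group with 1 one-colour Affymetrix array each, and no other age, genotype or treatment. The labels do not say whether a replicate was 1 pup or a pool, so p-values cover no more than the spread among these samples, which may be technical in part.

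Alveolar type 2 cells make the phospholipid of surfactant, and much of its palmitate is built inside the cell. Acly splits cytosolic citrate to acetyl-CoA, the carboxylases Acaca and Acacb turn that into malonyl-CoA, and Fasn chains malonyl-CoA into palmitate. The Elovl enzymes then lengthen fatty acids and the Scd enzymes put in a double bond, while the transcription factor gene Srebf1 drives most of the pathway in mouse liver.

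The arrays had medians of 7.12 to 7.19 and highest values of 15.13 to 15.24 log2 units. Background, the 95th percentile of 86 probe sets of chemosensory receptor genes, lay between 5.33 and 5.61. The 11 measured alveolar type 2 markers all lay above it, with means from 12.96 to 14.71, among them Sftpc at 14.67 ± 0.053, Sftpb at 14.13 ± 0.077 and Sftpa1 at 14.71 ± 0.042 (SD, n = 5). The sample titles name alveolar type 2 cells, whereas the design text calls the cells ciliated. All 10 ciliated markers lay above background too, with means from 6.66 to 12.63 (Foxj1 7.91, Ccdc39 9.75, Rsph1 9.33), and their mean deviation from their own averages was 0.92, 0.30, -0.48, -0.42 and -0.32 in replicates 1 to 5. The mean of 12.63 was that of Tppp3, and no other exceeded 9.75. Tppp3 went another way, at 12.45, 12.80, 12.80, 12.43 and 12.67, and Dnah11 was highest in replicate 4, at 9.94. The other ciliated markers were highest in replicate 1. Among the control probe sets, the 3' minus 5' difference of Gapdh was 1.27, 1.52, 1.67, 1.39 and 1.596 in replicates 1 to 5, so it was smallest in replicates 1 and 4. That of Actb was 0.845 in replicate 3 and 0.542 to 0.599 in the others, and the bacterial bioB and bioC controls averaged 12.40 in replicate 1, against 11.48 to 11.61 elsewhere.

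All 10 genes gave a signal above background. A gene counted as above background when at least 1 of its probe sets had a Benjamini-Hochberg adjusted p under 0.05 in a one-sided test with limma. So did 75.6% of all genes outside the receptor genes, these 10 included. Of the 26 probe sets, 22 passed, against 72.4% of all probe sets outside the receptor genes. The 4 that did not were the dimmer Acacb probe set (5.43 ± 0.046), the dimmest Acly probe sets (4.45 ± 0.16 and 3.69 ± 0.27) and the dimmest Elovl6 probe set (5.02 ± 0.032). Each of these 3 genes had other probe sets that passed. The calls of Acacb and Elovl6 depended on the background: with genes restricted to organs other than lung in place of the receptors (9.12 to 9.61 per array), 8 of the 10 genes passed and these 2 did not. By probe set, 17 of the 26 passed with it, beside 11057 of 34897 over the array. That background rests on a few genes that gave signal themselves, such as Mbp (11.12) and Slc5a2 (9.99), named after their values were seen. Signals of different probe sets depend on their probes and were not set against each other.

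**Figure D1:**
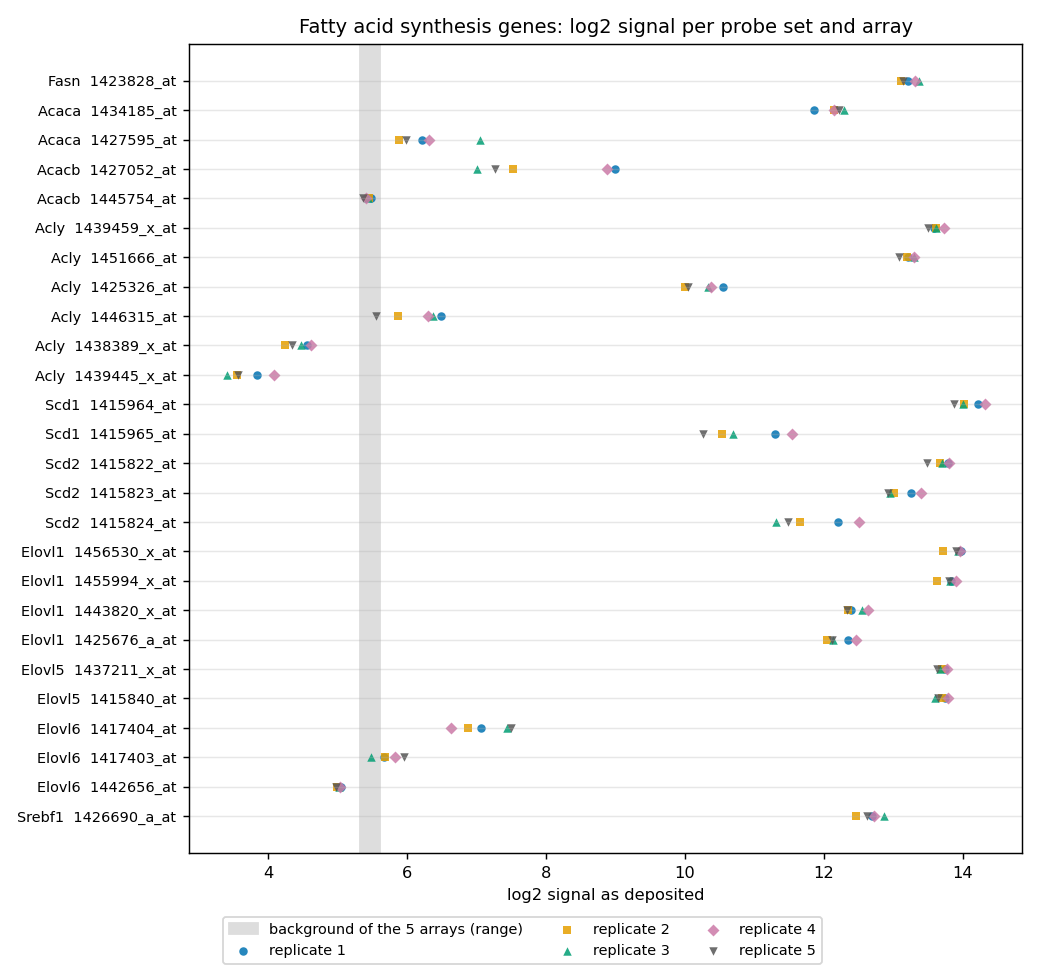
Log2 signal (horizontal axis) of the 26 probe sets (rows) in each of the 5 replicates (points), with the grey band spanning the background of the 5 arrays, 5.33 to 5.61. The points of 4 probe sets, of Acacb, Acly and Elovl6, lie in or left of the band, and the points of the brighter Acacb probe set spread the most widely.

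Acly, which supplies cytosolic acetyl-CoA, read 13.59, 13.62, 13.61, 13.73 and 13.51 in replicates 1 to 5 on its brightest probe set (mean 13.61 ± 0.081). The next brightest stayed as close, with a mean of 13.22 ± 0.088 and a 1.16-fold range. The lowest replicate was 5 on both. The other Acly probe sets above background had wider ranges: the brighter of them spanned 1.46-fold, from 10.001 in replicate 2 to 10.55 in replicate 1, and the dimmer spanned 1.90-fold, from 5.56 in replicate 5 to 6.48 in replicate 1.

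The carboxylase genes had their highest values in different replicates. Acaca, the cytosolic enzyme whose malonyl-CoA feeds Fasn, read 11.87, 12.15, 12.29, 12.15 and 12.22 in replicates 1 to 5 on its brighter probe set (12.14 ± 0.16), with replicate 1 below the other 4. Its dimmer probe set read 6.22, 5.88, 7.05, 6.32 and 5.99 (6.29 ± 0.46), with replicate 3 above the other 4. The 2 Acaca probe sets therefore agreed on replicate 3 as the highest and not on the lowest. Acacb, the carboxylase at the mitochondrial surface whose malonyl-CoA holds back fatty acid oxidation, read 8.997, 7.52, 7.001, 8.88 and 7.27 on its brighter probe set (7.93 ± 0.94). Replicates 1 and 4 stood more than 1 log2 unit above the other 3, and the range was 3.99-fold, the widest of the 22 probe sets above background. Its other probe set, at background, read 5.37 to 5.49 and did not show this.

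Fasn, the synthase itself, had 1 probe set and read 13.22, 13.11, 13.37, 13.32 and 13.15 in replicates 1 to 5 (13.23 ± 0.11). The range was 1.20-fold, with replicates 3 and 4 highest. Srebf1 also had 1 probe set, whose type (_a_at) matches several transcripts of 1 gene, and read 12.69, 12.47, 12.87, 12.73 and 12.63 (12.68 ± 0.15). Its highest replicates were 3 and 4 and its lowest was 2, as for Fasn, over a 1.33-fold range.

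Both desaturase genes had their highest values in replicates 4 and 1 on every probe set. Scd1 read 14.23, 14.02, 14.01, 14.32 and 13.88 in replicates 1 to 5 on its brighter probe set (14.09 ± 0.18) and 11.29, 10.53, 10.70, 11.55 and 10.26 on the dimmer one (10.87 ± 0.54). The range was 1.36-fold on the brighter and 2.45-fold on the dimmer. Scd2 read 13.80, 13.68, 13.70, 13.80 and 13.49 on its brightest probe set (13.69 ± 0.13), 13.27, 13.01, 12.95, 13.41 and 12.93 on the middle one (13.11 ± 0.21) and 12.20, 11.65, 11.31, 12.51 and 11.49 on the dimmest (11.83 ± 0.50). Its ranges were 1.24-fold, 1.39-fold and 2.29-fold, again narrower on the brighter probe sets. Over all probe sets above background the median range was 0.176 log2 units at means of 13 or more and 0.318 at means of 10 to 12, where the 95th percentile was 0.849. The dimmer Scd1 probe set, at 1.29, and the dimmest Scd2 one, at 1.195, had ranges above that percentile.

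The elongase genes Elovl1 and Elovl5 were above background on every probe set, and Elovl6 on 2 of its 3. Elovl1, which lengthens saturated very long chains, had 4 probe sets with means of 12.22 to 13.90 and ranges of 1.19-fold to 1.34-fold. The dimmest is of the type _a_at, and the others are of the type _x_at, whose probes can bind other transcripts too. The brightest Acly and the brighter Elovl5 probe set are also of the type _x_at. Replicate 4 was highest on 3 of the Elovl1 probe sets and replicate 2 lowest on 3. Elovl5, which lengthens polyunsaturated chains, read 13.75, 13.70, 13.60, 13.78 and 13.65 on 1 probe set (13.70 ± 0.074) and had a mean of 13.71 ± 0.061 on the other, with ranges of 1.13-fold and 1.11-fold. Elovl6, which lengthens palmitate, read 7.06, 6.88, 7.43, 6.63 and 7.49 on its brightest probe set (7.10 ± 0.37; limma adjusted p = 2.96e-08) and had a mean of 5.72 ± 0.18 on the next (adjusted p = 0.0295). On both probe sets replicate 5 was highest. Without replicate 1, 2 or 5 the dimmer of the 2 no longer passed (adjusted p = 0.0559, 0.0654 and 0.113).

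**Figure D2:**
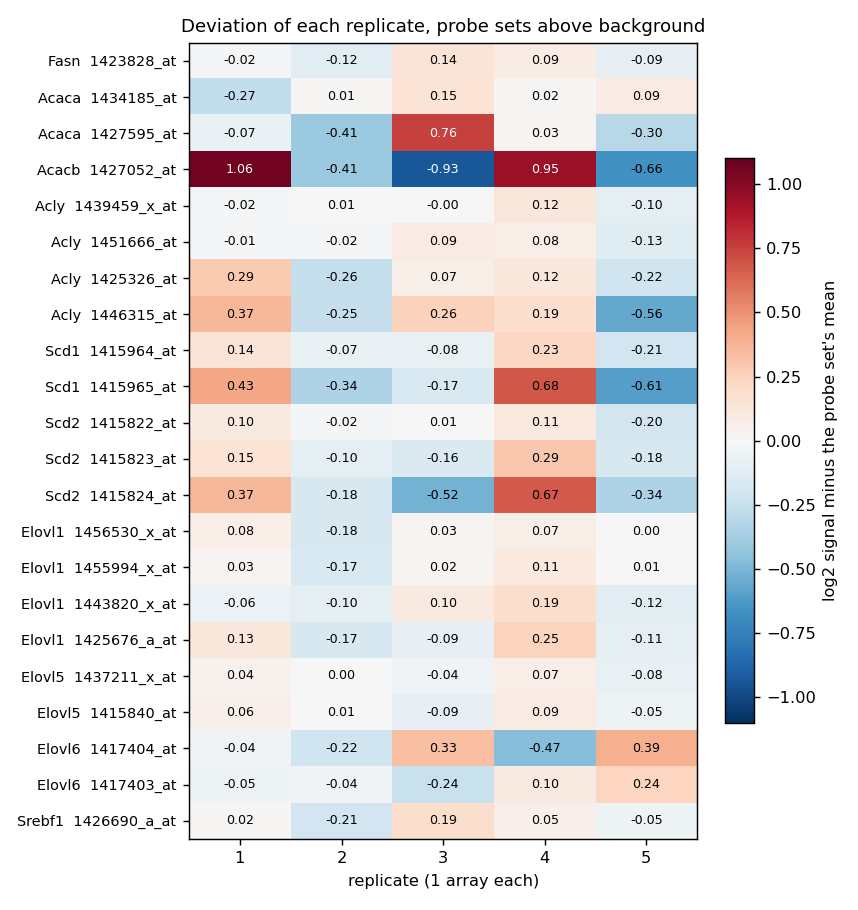
Log2 signal of each replicate (columns) minus the probe set's mean over the 5 arrays, for the 22 probe sets above background (rows), printed in each cell and coloured from blue (low) to red (high). Columns 1 and 4 are red in the rows of Scd1, Scd2 and Acacb, and column 3 is reddest in the rows of Fasn, Acaca and Srebf1.

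The replicates were then compared over all 22 probe sets. Replicate 4 was the highest in 11 of them, against 14.3% of all probe sets above background, and replicate 1 in 4 (22.7% of all). Replicate 3 was highest in 5 (26.3%), replicate 5 in 2 (20.6%) and replicate 2 in 0 (16.1%). The lowest value lay in replicate 5 in 9 probe sets (14.7% of all), in replicate 2 in 7 (20.6%), in replicate 3 in 4 (25.3%), and in replicates 1 and 4 in 1 each (22.8% and 16.7%). Replicates 1 and 4 held the highest 2 values in 12 of the 22, from 6 genes (Acacb, Acly, Scd1, Scd2, Elovl1 and Elovl5), against 15.4% of all probe sets above background. With 1 probe set per gene, the brightest, this was so for 5 of 10 genes, against 15.5% of all genes above background. Of the alveolar type 2 markers, Sftpa1, Slc34a2, Napsa, Lpcat1 and Etv5 showed the same order on their brightest probe sets. Sftpc, Sftpb, Abca3, Sftpd, Muc1 and Cebpa did not. The order is thus not particular to the fatty acid synthesis genes. Probe sets of 1 gene measure the same RNA, and these comparisons were made after the values had been seen.

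The spread of single probe sets was then tested, which does not test the order of the replicates. The variance over the 5 arrays was divided by that fitted by limma for probe sets of the same signal. No probe set of the 26 passed this one-sided F test after Benjamini-Hochberg adjustment over the array (lowest adjusted p = 0.77), and 0 of 34958 did (0%). Even the club cell gene Scgb3a1, with a 23.86-fold range, did not pass this F test (adjusted p = 0.32). A probe set that did not pass is therefore not shown to be equal between replicates. At an unadjusted p under 0.05 there were 5 of 26, against 5.47% of all probe sets. They were the brighter Acacb probe set, both Scd1 probe sets and the middle and dimmest Scd2 probe sets.

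As a description, the SD of each probe set was placed among those of all probe sets above background whose mean lay within 0.25 log2 units. The SD of the dimmest Scd2 probe set exceeded 99.6% of 1441 such probe sets, and that of the brighter Acacb probe set 99.6% of 1710. For Scd1 the shares were 99.2% of 132 on the brighter probe set and 98.6% of 1977 on the dimmer. The other Scd2 probe sets exceeded 96.4% and 90.7%. Those of Elovl1 exceeded 76.3% to 89.3%, Acaca 81.1% and 86.8%, Srebf1 85% and Fasn 73.8%. Acly ran from 55.6% to 81.5%, Elovl5 had 42.2% and 59.7%, and the Elovl6 probe sets above background 74.7% and 31.6%. The median SD of the 22 probe sets was 0.169, beside 0.17 for all probe sets above background, but 10 of the 22 had means of 13 or more, against 811 of 25234. At like signal their median SD was larger: 0.391 beside 0.246 at means under 8 (5 probe sets), 0.503 beside 0.128 at 10 to 12 (3), 0.154 beside 0.0972 at 12 to 13 (4) and 0.103 beside 0.0712 at 13 or more (10). A range of at least 1 log2 unit was found in 4 of 22 (the brighter of Acacb, the dimmer of Scd1 and of Acaca, and the dimmest of Scd2), against 9.3% of all.

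**Figure D3:**
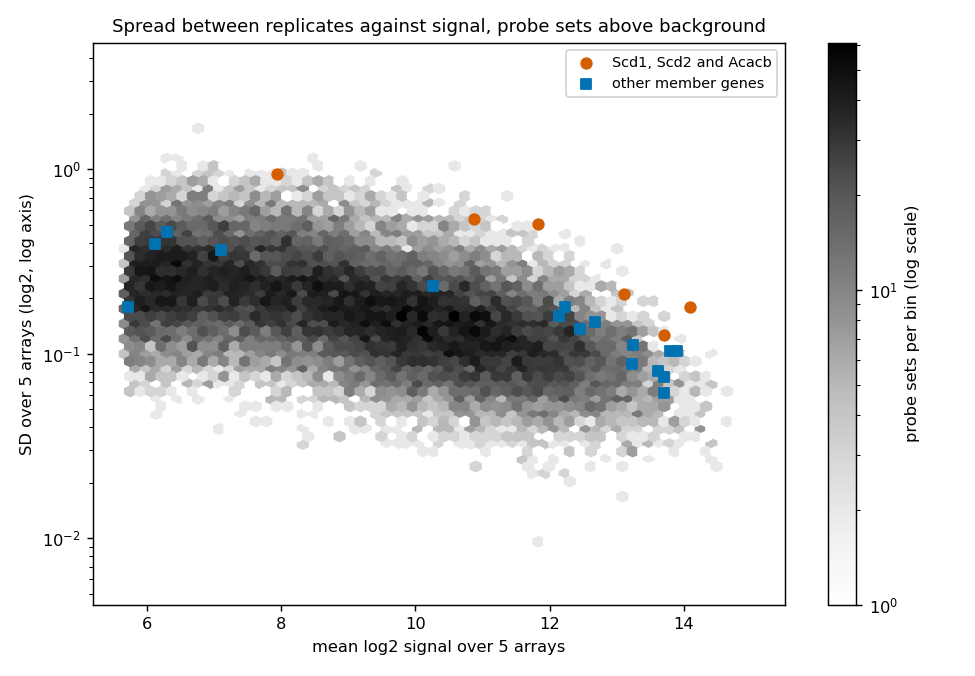
SD over the 5 arrays (vertical, log axis) against mean log2 signal (horizontal) for all probe sets above background (grey bins, darker where more probe sets lie) and for the 22 probe sets of the fatty acid synthesis genes (points). The orange points of Scd1, Scd2 and Acacb lie in the upper part of the grey cloud, and the blue squares of the other genes lie mostly above its middle too.

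The 3 genes whose replicate profile was most like that of the brighter Acacb probe set were Ube2c, Tedc1 and Asf1b. Likeness was the root mean square difference of mean-centred values over the 5 arrays, and it was 0.105, 0.113 and 0.127 among 4794 genes above background with a range of at least 0.5 log2 units. Ube2c, a ubiquitin-conjugating enzyme of mitosis, read 11.95, 10.54, 10.02, 11.69 and 10.40 in replicates 1 to 5. Asf1b, a histone chaperone of dividing cells, read 10.72, 9.43, 8.87, 10.57 and 9.30. That they share the highs and the low of Acacb follows from how they were chosen.

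A list of 10 dividing cell genes was added after these values had been seen, and it holds Ube2c itself. The 9 with a probe set all lay above background, with Mki67 at 11.15, Top2a at 10.72 and Ccna2 at 10.34, and their mean deviation was 0.82, -0.29, -0.75, 0.64 and -0.42 in replicates 1 to 5. The deviations of the dimmest Scd2 probe set were 0.37, -0.18, -0.52, 0.67 and -0.34, and those of the dimmer Scd1 probe set 0.43, -0.34, -0.17, 0.68 and -0.61. Both were positive in replicates 1 and 4 and negative in the other 3, whereas the brightest Scd2 probe set stood at 0.10, -0.02, 0.01, 0.11 and -0.20. The alveolar type 1 markers (5 of 5 above background) had mean deviations of -0.19, 0.11, 0.10, -0.11 and 0.09, below 0 in replicates 1 and 4. Of these markers, Ager read 14.68 ± 0.015, Pdpn 13.24 ± 0.091 and Hopx 13.26 ± 0.12. Rtkn2 ranged the most widely of them (11.07, 11.79, 12.01, 11.18 and 11.89), whereas Pdpn was highest in replicate 4, at 13.38. The neutrophil gene S100a8, named after its values were seen, read 12.93, 11.82, 10.93, 12.86 and 12.26, also highest in replicates 1 and 4, and the Gapdh difference given above was smallest there. The part of dividing cells, of these other cells and of RNA quality in the values of Acacb, Scd1 and Scd2 was not tested. In bulk samples, fewer cells of a type and less RNA per cell cannot be told apart.

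Alveolar type 2 markers had mean deviations of 0.03, -0.03, 0.02, 0.07 and -0.09 in replicates 1 to 5 on their brightest probe sets. Those had means of 12.96 to 14.71. Over the array the median SD was 0.0712 at means of 13 or more, beside 0.17 for all probe sets above background. The middle Etv5 probe set, chosen after its values were seen, read 12.57, 11.91, 12.12, 12.45 and 11.97, highest in replicates 1 and 4. The dimmer Napsa probe set was highest in replicates 3 and 4, and the dimmest Abca3 one in 3 and 5. The 10 fatty acid synthesis genes had mean deviations of 0.11, -0.12, -0.02, 0.12 and -0.09 on their brightest probe sets. That mean leans on Acacb, whose deviations were 1.06, -0.41, -0.93, 0.95 and -0.66. Of the others, Fasn, Acaca and Srebf1 were highest in replicate 3, Acly, Scd1, Scd2 and Elovl5 in replicate 4, Elovl1 in replicate 1 and Elovl6 in replicate 5. Both list means were highest in replicate 4, and the lowest was replicate 5 for the markers and replicate 2 for the synthesis genes. Of 8 measured adipocyte and lipofibroblast markers 5 lay above background, with mean deviations of -0.001, 0.12, -0.31, 0.01 and 0.19. Adipoq, a hormone gene of fat cells, was below background at 3.76 ± 0.20, as was Lep at 3.42 ± 0.12, and Plin4 did not pass at 5.68 ± 0.15 (limma adjusted p = 0.0511). Fabp4 read 9.99 ± 0.17, Cidec 6.38 ± 0.26, Retn 6.10 ± 0.47, Lpl 12.19 ± 0.22 and Tcf21 11.90 ± 0.47; all 8 are given, a choice made after their values were seen. The fibroblast markers (5 of 7 above background, all but Lum and Fgf10) were lowest in replicate 3, at -0.80, with Col1a1 at 12.96, Col3a1 at 13.04 and Pdgfra at 9.52. The mean deviation of the immune markers (7 of 7) was lowest there as well, at -0.45, with Ptprc at 9.36, Csf1r at 12.30 and Laptm5 at 12.10. The exceptions were Csf1r, which was lowest in replicate 1 and read 12.54 in replicate 3, and Lyz2, which was lowest in replicate 5. The endothelial markers (5 of 5, with Pecam1 at 9.82, Cdh5 at 10.10 and Kdr at 10.47) had mean deviations of 0.14, -0.16, -0.16, 0.05 and 0.12. Those of the club cell markers (4 of 4, with Scgb1a1 at 14.50, Scgb3a2 at 14.31 and Cyp2f2 at 13.16) were -0.24, 0.42, -0.62, -0.05 and 0.48. The club list mean leans on Scgb3a1, which read 8.50, 10.37, 6.61, 8.77 and 11.19. Scgb1a1, Scgb3a2 and Cyp2f2 had ranges of 1.17-fold, 1.22-fold and 1.31-fold. What part these cells had in the signals of the fatty acid synthesis genes was not tested.

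**Figure D4:**
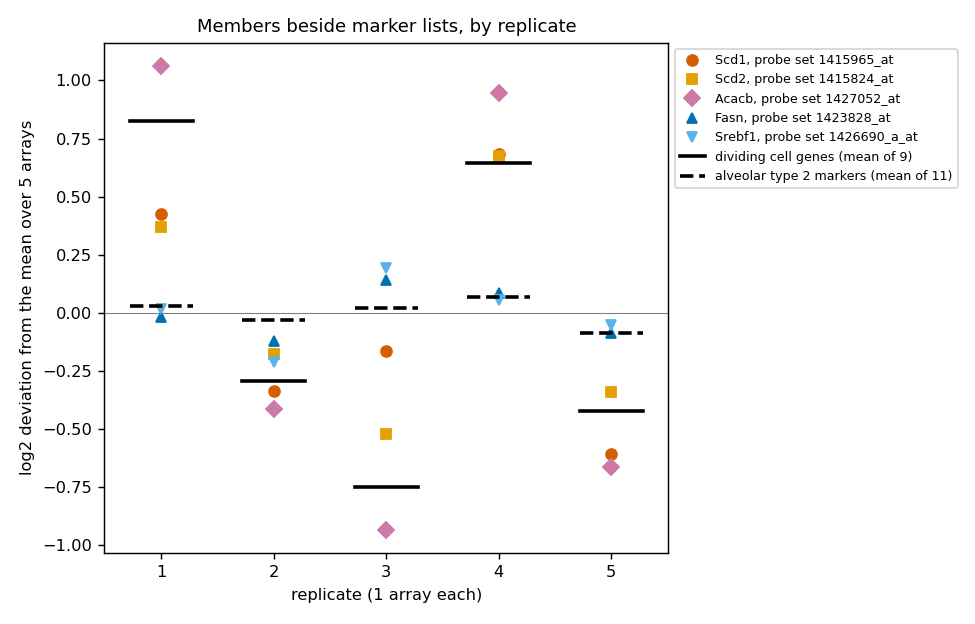
Log2 deviation from the mean over the 5 arrays (vertical) in each replicate (horizontal) for 5 probe sets (symbols), each the widest in range of its gene among those above background, with the mean deviation of 9 dividing cell genes (solid bars) and 11 alveolar type 2 markers (dashed bars). The bars take the brightest probe set of each gene and not the widest in range. Acacb, Scd1 and Scd2 lie above 0 in replicates 1 and 4 and below 0 in replicates 2, 3 and 5, whereas Fasn and Srebf1 stay nearer 0, the lowest point being -0.21 for Srebf1 in replicate 2.

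The regions upstream of 8 of the 10 genes, all except Scd1 and Scd2, were matched in RefSeq promoter windows of build GRCm38.p6, and 11 windows were read. The 250 bases before the start were searched on both strands for the sterol regulatory element TCACNCCAC, the E-box CACGTG, the NF-Y box CCAAT and the Sp1 box GGGCGG. The sterol letters were in 0 of the 11 windows and in 1.05% of all 32851. CACGTG was in 1 window, of Elovl5 (6.02% of all), and CCAAT in 6 windows of 5 genes (33.85% of all). GGGCGG was in 5 windows of 3 genes, Acly, Elovl1 and Srebf1 (32.74% of all). The windows of Acaca, Acly and Elovl6 held no CCAAT. The windows printed below were chosen by the order of the replicates in the signals of their genes, which was not tested. Those of Fasn (chr11:120824548-120824797, minus strand) and Srebf1 (chr11:60210472-60210721, minus strand, 1 of its 3 windows, of which 2 hold CCAAT) belong to genes highest in replicate 3. Those of Elovl5 (chr9:77917115-77917364, plus strand) and Acacb (chr5:114165268-114165517, plus strand) belong to genes with their highest 2 signals in replicates 1 and 4, for Acacb on its brighter probe set only. Capitals mark CACGTG and CCAAT on either strand, and in Fasn CCAAT matches on opposite strands overlap once. A match of letters describes the sequence and not a site in use.
Fasn: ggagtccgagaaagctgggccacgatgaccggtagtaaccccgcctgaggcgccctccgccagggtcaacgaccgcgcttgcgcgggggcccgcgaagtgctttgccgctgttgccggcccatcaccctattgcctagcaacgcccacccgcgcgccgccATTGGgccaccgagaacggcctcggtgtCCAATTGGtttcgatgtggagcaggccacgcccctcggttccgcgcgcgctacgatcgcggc
Srebf1: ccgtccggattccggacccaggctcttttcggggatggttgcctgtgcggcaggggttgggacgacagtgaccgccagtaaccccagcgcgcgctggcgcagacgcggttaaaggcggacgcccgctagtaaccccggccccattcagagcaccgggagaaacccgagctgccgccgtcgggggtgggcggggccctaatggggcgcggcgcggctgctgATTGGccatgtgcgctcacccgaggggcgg
Elovl5: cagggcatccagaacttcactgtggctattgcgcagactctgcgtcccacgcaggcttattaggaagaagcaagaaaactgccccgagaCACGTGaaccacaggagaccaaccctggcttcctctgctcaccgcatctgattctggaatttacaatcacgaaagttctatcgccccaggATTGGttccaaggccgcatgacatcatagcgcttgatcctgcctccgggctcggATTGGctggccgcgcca
Acacb: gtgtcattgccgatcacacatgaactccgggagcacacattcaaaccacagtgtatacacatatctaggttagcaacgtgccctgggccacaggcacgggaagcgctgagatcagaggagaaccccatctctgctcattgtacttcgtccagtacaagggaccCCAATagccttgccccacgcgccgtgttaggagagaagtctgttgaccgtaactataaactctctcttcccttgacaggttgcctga

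The regulators around Srebf1 were measured as a list of 14 genes chosen for their role, and all 13 with a probe set lay above background. Over this and the other 5 pathway lists 50 of 55 measured genes did, and 36 of 55 with the organ-restricted background. Srebf2, the sterol-regulated relative of Srebf1, had a mean of 11.79 ± 0.069, Scap, the escort that carries both proteins out of the endoplasmic reticulum, 10.46 ± 0.084, and Insig1, which retains them there, 13.39 ± 0.16. Insig1 was lowest in replicate 5, at 13.10, against 13.44 to 13.499 in the others. Thrsp, which stimulates lipogenesis in mouse liver and was chosen after its values were seen, read 8.89, 8.06, 8.18, 9.01 and 8.56 in replicates 1 to 5, so replicates 4 and 1 were its highest too. The probe set shown for each of these genes is its brightest.

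All 9 genes for AMP-activated kinase, which phosphorylates and inactivates the carboxylases, and for malonyl-CoA removal lay above background. The catalytic subunit genes Prkaa1 and Prkaa2 had means of 9.31 ± 0.17 and 10.30 ± 0.11 and the subunit gene Prkab1 11.93 ± 0.099. The list's mean deviation was highest in replicate 3, at 0.13, and lowest in replicate 2, at -0.08. All 7 measured genes for citrate, acetate and NADPH supply lay above background as well. The citrate carrier gene Slc25a1 had 9.09 ± 0.10 and Me1, the malic enzyme that yields NADPH, 12.27 ± 0.13. Acss2, which makes acetyl-CoA from acetate, read 11.60, 11.36, 11.28, 11.86 and 11.57, highest in replicates 4 and 1.

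Among the other elongation and desaturation enzymes 12 of 15 lay above background. The exceptions were Elovl3 (3.34 ± 0.099), Elovl4 (4.64 ± 0.33) and Scd3 (5.53 ± 0.27, adjusted p = 0.359), the desaturase next of kin to Scd1. Elovl2, an elongase of polyunsaturated chains, read 7.49, 7.02, 6.74, 6.92 and 6.48 (6.93 ± 0.38). Fads2, a desaturase of polyunsaturated chains chosen after its values were seen, read 12.03, 11.74, 11.82, 12.18 and 11.67, again with replicates 4 and 1 highest. Fads1, its partner enzyme and likewise chosen after its values were seen, read 12.23 in replicate 3 and between 11.76 and 12.07 elsewhere.

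Mitochondrial fatty acid synthesis, which makes the precursor of lipoic acid, was above background in 6 of 6 measured genes, with Mcat at 9.96 ± 0.089, Oxsm at 8.98 ± 0.12 and Mecr at 9.99 ± 0.093. The list's mean deviations stayed between -0.05 and 0.06. For activation to acyl-CoA, Acsl3, Acsl4 and Acsl5 had means of 10.69 ± 0.12, 13.004 ± 0.092 and 13.49 ± 0.033. Acsl6 (4.56 ± 0.15) and Olah, the thioesterase that releases medium chains from Fasn in the rat mammary gland (5.45 ± 0.32, adjusted p = 0.642), did not pass, so 3 of 5 did.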

How the data were processed

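RNA from 5 samples of 1 group was amplified with a NuGEN Ovation kit and labelled with biotin, per the labels' protocols. The deposited values were 1 log2 signal per probe set and array. The log base was inferred from their range; software, background correction and normalization were not given in the sources used here. Of 45101 probe sets, 34958 had 1 gene symbol in a platform annotation, 932 had several and 9211 were unnamed here. All 10 member genes matched a RefSeq gene table by gene ID. Coordinates are given for promoter windows only.

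Each array's background, the 95th percentile of 86 probe sets of 77 receptor genes, was subtracted, and an intercept was fitted with limma 3.58.1 in R 4.3.3 (lmFit, eBayes with trend). Of the 86, 4 passed the one-sided test themselves. Spread was tested with an F test on 4 and 4.62 degrees of freedom against limma's fitted variance (trend, robust). Arrays give no counts, so their number limits the precision.

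The members and gene lists were chosen with earlier results of these data known. Genes were named by a rule: all members, the first 3 measured genes of each pathway and marker list, the minority-side genes of a pathway list where 5 or fewer, and the 3 most like the widest-ranging member. The alternatives were other backgrounds, normalizations, probe set choices, variance models and left-out replicates.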

Additional observations from a re-analysis of the deposited data

How the results depend on the processing

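No paired analysis was possible because all 5 samples form 1 group. Of 17 alternatives, 15 left all 10 genes above background. Organ-restricted background genes left 8 of 10, with 17 of 26 probe sets and 36 of 55 other pathway genes, and without _s_at, _x_at and _a_at probe sets 8 of 8 passed, with none measured for Elovl1 and Srebf1. Leaving out 1 replicate gave 21 to 22 of the 26 probe sets and 49 to 50 of 55 other pathway genes. Fitting 1 value per gene gave 10 of 10 with the brightest probe set (13563 genes over the array) or with the median (13223), fewer because fewer were tested. With organ-restricted background genes 11057 of 34897 probe sets over the array passed. No alternative brought a member past the spread test; over the array 1 probe set passed without _s_at, _x_at and _a_at probe sets, and 0 to 4 when 1 replicate was left out.

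The median SD of member probe sets above background was 0.149 with the 99th percentile as background, 0.136 with organ-restricted genes, 0.212 without _s_at, _x_at and _a_at probe sets, 0.138 with the brightest probe set per gene and 0.196 with the median over probe sets, as other probe sets entered it. The count with the highest 2 values in replicates 1 and 4 was 12 of 22 with quantile normalization or median centring.

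Signal minus background changed sign for probe sets near it. With the 90th percentile it was 0.0165 for the dimmest Elovl6 probe set and 0.43 for the dimmer Acacb one. With the 99th it was -0.659 for the middle Elovl6 probe set, -0.086 for the dimmer Acaca one and -0.263 for the dimmest Acly one above background. With organ-restricted genes it was -3.685 for the middle Elovl6 probe set, -2.305 for the brightest, -1.47 for the brighter Acacb one, -3.112 for the same Acaca one and -3.289 for the same Acly one. For the dimmer Acacb probe set it ran from -0.0545 (without replicate 2) to 0.031 (without replicate 4) when 1 replicate was left out, and was 0.0065 without replicate 5. The middle Elovl6 probe set also missed the threshold with 1 probe set per receptor gene (limma adjusted p = 0.081).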

Other observations

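Some genes beside the pathway gave values that were chosen after they were seen. Prkag3, the AMP-activated kinase subunit gene known from skeletal muscle, read 10.07, 10.01, 10.24, 10.04 and 10.26 in replicates 1 to 5 on its 1 probe set (10.12 ± 0.12, SD, n = 5). Elovl7, an elongase of saturated chains, was above background on its brightest probe set of 6 (10.77 ± 0.14). Mid1ip1, the partner of Thrsp that promotes assembly of the carboxylases, read 13.58, 13.37, 13.37, 13.52 and 13.36, with replicates 1 and 4 highest. Mlxipl, the glucose-responsive transcription factor gene of lipogenesis, went another way at 8.36, 8.97, 8.87, 8.56 and 8.46, with replicates 2 and 3 highest. Pparg, a regulator of lipid storage, read 8.90, 9.18, 8.86, 9.30 and 9.29.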
